A study of Mus musculus with 12 samples.

Results

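Uninjured kidneys of mice labelled PTCKO, for a proximal tubule knockout of Wwp2, were compared with uninjured kidneys of WT mice, all taken after a sham operation. The comparison rested on 6 of the 12 RNA-seq libraries of the series, chosen by their titles: PTCKO sham libraries 1 to 3 and WT sham libraries 1 to 3. PTCKO mice carried a conditional Wwp2 knockout in the proximal tubule. WT mice carried floxed Wwp2 alleles without that knockout. By the labels, both genotypes were on a C57BL/6J background, male and 8 weeks old. The other 6 libraries came from PTCKO and WT kidneys after UIR, an injury named only by that abbreviation in the labels, and were used here as separate libraries of the same genotypes. The Cre driver, the floxed exon, the clock hour at which kidneys were taken and the link of each library to a mouse are not stated in the labels. As a result, p-values measure the spread between libraries, which may be technical.

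Of the 18803 genes in the deposited table, 13685 had enough reads to test in the sham libraries, and all of them were compared. Total expected counts were 15855889 to 16013920 per library in PTCKO sham and 16411402 to 16953930 in WT sham. A gene was called where edgeR's quasi-likelihood test gave a Benjamini-Hochberg adjusted p under 0.05, and fold changes are PTCKO over WT on the log2 scale. In total 1653 genes (12.1% of those tested) were called, 878 higher (6.42%) and 775 lower (5.66%) in PTCKO, and 199 of them (1.45%) differed at least 2-fold, 143 higher and 56 lower. The libraries of the groups did not overlap in library-scaled counts (CPM) for 38.6% of genes tested. Of the calls, 53.1% were higher, a share that moved with the scaling: it was 82.1% with no scaling factors and 91.6% on TPM, and the median of all genes, 0.02, moved to 0.12 and 0.18. The number of calls also depended on single libraries, falling to 218 without PTCKO sham 1, 371 without PTCKO sham 2, 487 without PTCKO sham 3, 277 without WT sham 1 and 895 without WT sham 3. Of 125 called genes that the naming rule picked, 33 kept their call with each of the 6 libraries left out in turn, and 31 kept it under all 15 alternative settings with a test. The gene lists used below were chosen with earlier results of these data known, so their counts beside the share of all genes are descriptions.

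The tissue had the markers of whole kidney. All 29 proximal tubule markers found in the table were expressed enough to test, and their summed level was 193578 to 198670 TPM in PTCKO sham and 196722 to 201418 TPM in WT sham. Adrenal enzymes were at or near 0 in every sham library, with Cyp11b1 listed at 0 FPKM in all 6. Of the fat markers, the adipokine genes Adipoq and Cfd stood at 4.02 and 21.3 FPKM in WT sham 2 and at no more than 0.26 FPKM in the other 5 sham libraries. In bulk tissue, fewer cells of a type and less RNA per cell cannot be told apart.

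Wwp2, the targeted gene (Entrez 66894, chromosome 8, 107436334 to 107559290, GRCm38.p6), encodes one of the NEDD4-like HECT ligases, which attach ubiquitin to other proteins. It was measured at 15.6, 16.1 and 17.6 FPKM in PTCKO sham, against 15.2, 15.7 and 17.1 FPKM in WT sham. The groups overlapped, with a log2 fold change of -0.0024 (SE 0.0754, edgeR adjusted p = 0.986) and an exact two-sided permutation p of 1, where 3 against 3 libraries cannot go below 0.1. The reads cover the whole gene in tissue of many cell types, so a deleted exon in proximal tubule cells cannot be read from them. Every direction below therefore rests on the labels PTCKO and WT. Of 123 tested genes within 5 Mb of Wwp2, 16 (13.0%) were called, and the called share per chromosome ran from 9.35% to 15.2%. Beside 12.1% of all genes called, 1 of the 8 NEDD4-family ligases tested was called. This was Smurf2, a ligase of TGF-beta receptor signalling, at 10.8, 10.6 and 11.2 FPKM in PTCKO sham and 7.92, 8.13 and 5.66 FPKM in WT sham (log2 fold change 0.49, SE 0.11, adjusted p = 0.0319). It was 0.35 to 0.54 with 1 library left out and lost its call without any PTCKO library or WT sham 1.

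As background, kidney tubule cells hold a molecular clock in which BMAL1 (gene Arntl) pairs with CLOCK or NPAS2 at E-boxes and switches on the Per, Cry and Nr1d genes, whose products repress the pair in turn. DBP, TEF and HLF activate, and NFIL3 represses, genes with a D-box, and so carry the cycle to tubule transport and detoxification genes. Adrenal glucocorticoids rise and fall over the day, act through the glucocorticoid receptor (Nr3c1) at response elements of their own, and switch on genes such as Sgk1, Tsc22d3 and Per1. The proximal tubule burns fatty acids, makes glucose and reabsorbs most of the filtrate, and is the segment in which Wwp2 was targeted.

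The promoters of 3 genes that differed between the genotypes are shown because they carry the motifs of these pathways. Each sequence is the 250 bases before a RefSeq transcript start (GRCm38.p6), on the gene's strand, 5′ to 3′. Capitals mark the motif: the D-box TTATGNAA in Per3, the E-box CACGTG in Tef, and in Sgk1 an E-box followed by the full glucocorticoid response element, an inverted repeat. Per3 is at chr4:151044666-151044915 on the minus strand, Tef at chr15:81811164-81811413 and Sgk1 at chr10:21993640-21993889, both on the plus strand.
Per3: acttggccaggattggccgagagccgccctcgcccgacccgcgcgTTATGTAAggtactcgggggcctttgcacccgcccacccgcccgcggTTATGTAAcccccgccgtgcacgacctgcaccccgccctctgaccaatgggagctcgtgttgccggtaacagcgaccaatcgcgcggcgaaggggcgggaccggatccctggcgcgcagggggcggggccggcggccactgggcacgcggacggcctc
Tef: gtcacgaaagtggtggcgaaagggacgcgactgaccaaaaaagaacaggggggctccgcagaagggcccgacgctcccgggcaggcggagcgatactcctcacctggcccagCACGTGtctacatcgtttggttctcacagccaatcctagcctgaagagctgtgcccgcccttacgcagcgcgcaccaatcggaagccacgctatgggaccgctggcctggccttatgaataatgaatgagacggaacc
Sgk1: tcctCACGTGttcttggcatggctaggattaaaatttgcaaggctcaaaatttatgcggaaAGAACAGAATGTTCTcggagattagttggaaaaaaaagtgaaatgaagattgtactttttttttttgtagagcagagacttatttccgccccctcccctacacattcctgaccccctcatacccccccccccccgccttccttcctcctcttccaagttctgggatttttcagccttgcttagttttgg

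Searched on both strands of 32851 such windows, the E-box was found in 6.02%, the D-box in 3.07% and the full glucocorticoid response element in 0.00913%, which was 3 windows. Counted by gene over all its windows, 6.86% of 27025 genes held an E-box and 3.63% a D-box. Of the 24 clock genes, 19 had a window, and 5 of these held an E-box (Bhlhe41, Ciart, Cry1, Per1 and Tef) and 3 a D-box (Noct, Per1 and Per3). Of the 25 glucocorticoid-induced genes, 22 had a window, 4 held an E-box (Dusp1, Fkbp5, Klf15 and Sgk1), and 1, Sgk1, held the full element. These matches are descriptions of the letters in the window. Genes with the same motif moved in different directions: Tef, with an E-box, was higher in PTCKO and Cry1, also with an E-box, was lower.

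Clock genes differed in both directions. Of 24 tested, 8 were higher and 7 lower in the libraries labelled PTCKO, against 6.42% and 5.66% of all genes. All 5 activators had a negative fold change and 3 were called lower (median log2 fold change -0.31). Of the 10 repressors, 6 were called higher and 1 lower (median 0.73). Of the 9 output genes, 2 were higher and 3 lower (median -0.27). The median of all genes was 0.02. No difference in direction between these roles was tested, and with 1 library left out 5 to 7 clock genes were higher and 4 to 6 lower: 4 were lower without PTCKO sham 1 or PTCKO sham 2, and 5 were higher without PTCKO sham 1, PTCKO sham 3 or WT sham 1.

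**Figure D1:**
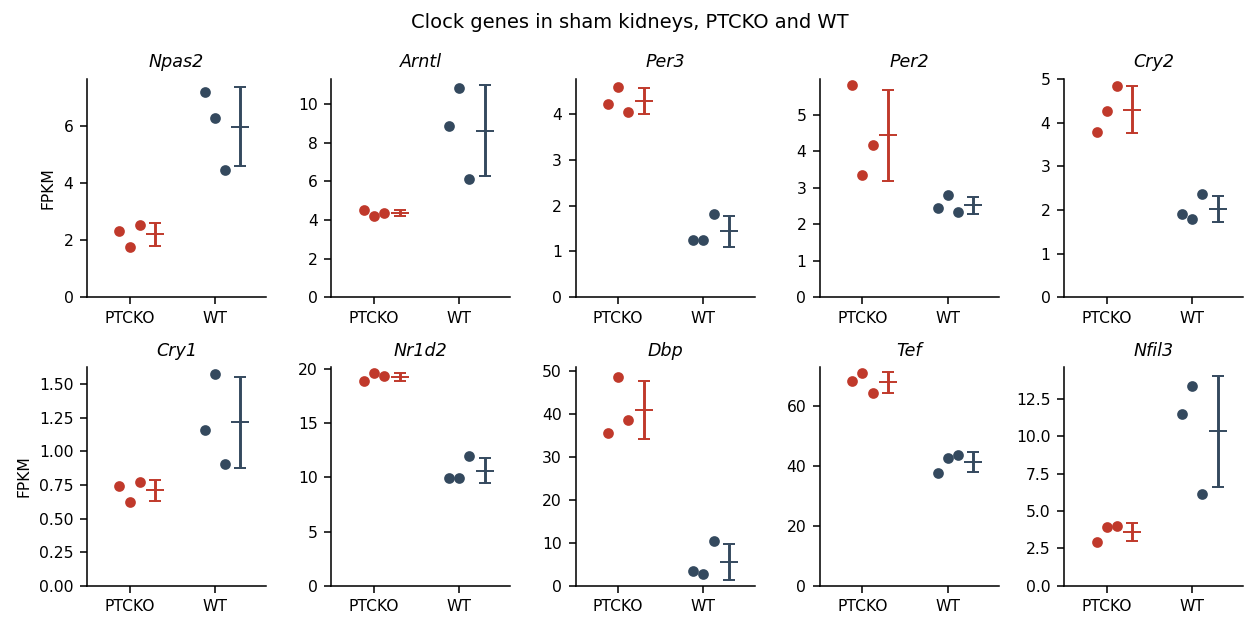
FPKM (vertical axes, from 0) of 10 clock genes in the 3 PTCKO and 3 WT sham libraries; points are libraries and bars the mean ± SD. Dbp, Tef, Per3, Per2, Cry2 and Nr1d2 are higher, and Npas2, Arntl, Cry1 and Nfil3 lower, in every PTCKO library than in any WT library.

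Among the activators, Npas2 was at 2.33, 1.75 and 2.53 FPKM in PTCKO sham, against 7.19, 6.25 and 4.45 FPKM in WT sham (log2 fold change -1.53, SE 0.19, adjusted p = 0.00668). Arntl was at 4.49, 4.22 and 4.35 FPKM in PTCKO sham and 8.87, 10.8 and 6.13 FPKM in WT sham (-1.04, SE 0.18, adjusted p = 0.0167). The PTCKO libraries lay close together for both genes, and WT sham 3 was the lowest of the WT libraries. Arntl lost its call without PTCKO sham 1 or PTCKO sham 2, at -1.23 to -0.87 over the 6 libraries left out. Clock itself, the BMAL1 partner, was at 3.68 to 4.36 FPKM in PTCKO sham and 3.54 to 4.26 FPKM in WT sham, with an adjusted p of 0.703.

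Among the repressors, Per3 was at 4.22, 4.60 and 4.06 FPKM in PTCKO sham, against 1.25, 1.24 and 1.83 FPKM in WT sham (log2 fold change 1.46, SE 0.16, adjusted p = 0.00478). Cry2 was at 3.78, 4.28 and 4.85 FPKM in PTCKO sham and 1.91, 1.80 and 2.36 FPKM in WT sham (1.00, SE 0.14, adjusted p = 0.0102). Nr1d2, which encodes the REV-ERB-beta repressor of Arntl, was at 18.9, 19.7 and 19.4 FPKM in PTCKO sham and 9.99, 9.94 and 12.0 FPKM in WT sham (0.75, SE 0.10, adjusted p = 0.00754). The groups did not overlap for these 3 genes, and all 3 kept their call under every alternative. Per2 (0.72), Nr1d1 (0.41) and Bhlhe41 (0.99) were also called higher, but each lost the call without PTCKO sham 1, PTCKO sham 3 or WT sham 1, and further without WT sham 2 or WT sham 3 (Per2 and Bhlhe41) or PTCKO sham 2 (Nr1d1). Cry1 went the other way, at 0.74, 0.62 and 0.77 FPKM in PTCKO sham against 1.16, 1.58 and 0.91 FPKM in WT sham (-0.88, adjusted p = 0.0420), and lost its call without any PTCKO library, WT sham 1 or WT sham 2. Per1, which both the clock and glucocorticoids induce, overlapped between the groups, at 10.7, 9.80 and 17.9 FPKM in PTCKO sham and 16.5, 22.8 and 17.8 FPKM in WT sham (adjusted p = 0.0672).

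Among the outputs, Dbp had the largest clock difference, with 35.7, 48.6 and 38.6 FPKM in PTCKO sham and 3.41, 2.74 and 10.3 FPKM in WT sham (log2 fold change 2.79, SE 0.40, adjusted p = 0.0102). Tef, its relative, was at 68.2, 70.9 and 64.1 FPKM in PTCKO sham and 37.5, 42.6 and 43.6 FPKM in WT sham (0.63, SE 0.09, adjusted p = 0.0101). Their opponent at D-boxes, Nfil3, was at 2.89, 3.93 and 3.98 FPKM in PTCKO sham and 11.5, 13.4 and 6.16 FPKM in WT sham (-1.55, SE 0.25, adjusted p = 0.0133). WT sham 3 stood nearest to the PTCKO libraries for Dbp, Nfil3, Npas2 and Arntl. The deadenylase gene Noct was at 5.59, 5.32 and 8.51 FPKM in PTCKO sham, against 16.5, 20.4 and 32.2 FPKM in WT sham (-1.90, adjusted p = 0.00806). The deubiquitinase gene Usp2 was at 46.8, 43.6 and 45.4 FPKM in PTCKO sham and 56.5, 69.7 and 69.0 FPKM in WT sham (-0.62, adjusted p = 0.0139). Hlf, the remaining PAR-bZIP factor, overlapped between the groups (0.20, adjusted p = 0.305).

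Genes known to be induced by glucocorticoids were lower in the libraries labelled PTCKO. Of 24 tested, 14 were called lower and 0 higher, against 5.66% and 6.42% of all genes, and 23 of 24 had a negative fold change (median -0.78). With 1 library left out, 10 to 14 were lower. On TPM, where the median of all genes was 0.18, 11 were lower and the list median was -0.47. Because the list was chosen with earlier results of these data known, its counts are a description and not an independent test.

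**Figure D2:**
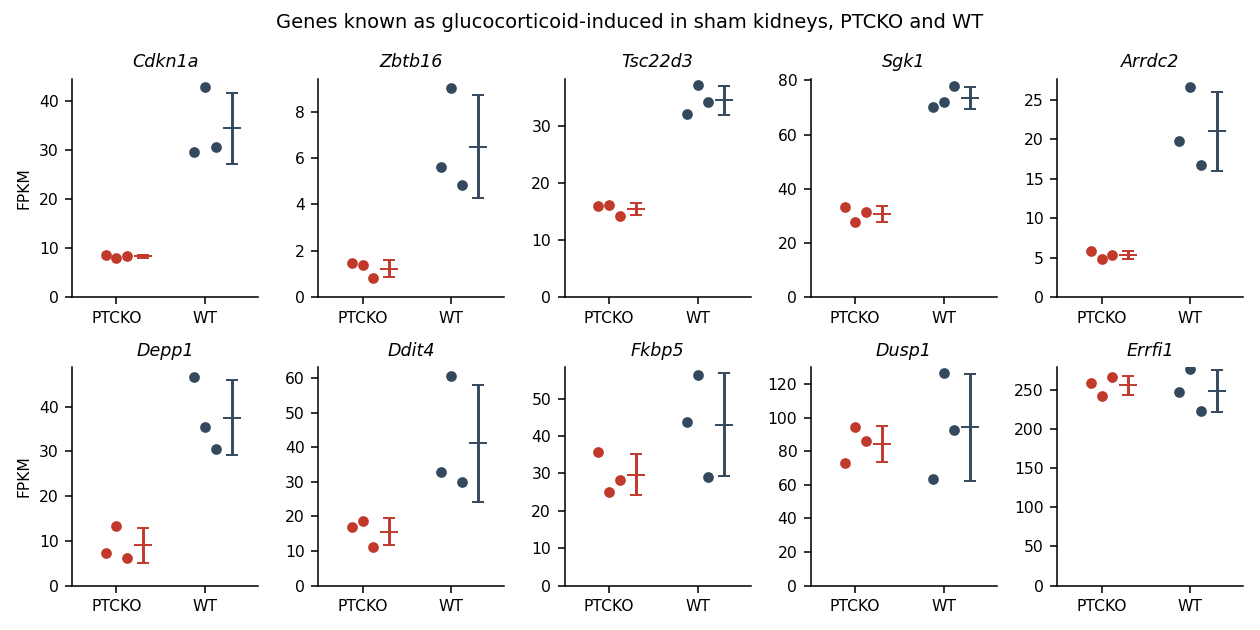
FPKM (vertical axes, from 0) of 10 genes known as glucocorticoid-induced in the 3 PTCKO and 3 WT sham libraries; points are libraries and bars the mean ± SD. Cdkn1a, Zbtb16, Tsc22d3, Sgk1, Arrdc2, Depp1 and Ddit4 separate the groups, while Fkbp5, Dusp1 and Errfi1 overlap.

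Cdkn1a, which encodes the cell cycle inhibitor p21, was at 8.61, 7.98 and 8.36 FPKM in PTCKO sham, against 29.7, 42.7 and 30.7 FPKM in WT sham (log2 fold change -2.15, SE 0.14, adjusted p = 0.000315), the smallest adjusted p on the list. Tsc22d3, the glucocorticoid-induced leucine zipper, was at 16.1, 16.3 and 14.3 FPKM in PTCKO sham and 32.2, 37.2 and 34.4 FPKM in WT sham (-1.19, SE 0.09, adjusted p = 0.000686). Sgk1, the kinase that raises sodium channel activity and holds the response element shown above, was at 33.1, 27.6 and 31.5 FPKM in PTCKO sham and 70.2, 71.9 and 78.0 FPKM in WT sham (-1.36, SE 0.10, adjusted p = 0.000686). No library of one group reached the range of the other for these 3 genes. The transcription factor gene Zbtb16 was at 1.48, 1.40 and 0.82 FPKM in PTCKO sham, against 5.62, 9.01 and 4.82 FPKM in WT sham (-2.49, SE 0.26, adjusted p = 0.00386). Arrdc2, an arrestin-domain gene, was at 5.86, 4.87 and 5.40 FPKM in PTCKO sham and 19.7, 26.5 and 16.8 FPKM in WT sham (-2.06, SE 0.16, adjusted p = 0.000686). All 5 kept their call under every alternative, as did Depp1 (-2.17), a FOXO target, and Angptl4 (-1.29), an inhibitor of lipoprotein lipase.

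Ddit4, an inhibitor of mTORC1, was at 16.8, 18.6 and 11.2 FPKM in PTCKO sham and 32.9, 60.6 and 30.0 FPKM in WT sham (log2 fold change -1.50, adjusted p = 0.0167), and lost its call without PTCKO sham 1. The C/EBP factors Cebpb and Cebpd were both at -1.08, the metallothionein gene Mt1 at -0.69 and the factor Klf15 at -0.44, each called lower. Hif3a, a hypoxia-inducible factor, was called lower below 1 FPKM in every sham library (-1.65). Nfkbia, the inhibitor of NF-kappa-B, was called lower (-0.87) although the groups overlapped, at 17.5, 18.3 and 30.0 FPKM in PTCKO sham and 26.8, 47.0 and 37.8 FPKM in WT sham. The 10 members not called included Fkbp5, a receptor co-chaperone and common glucocorticoid readout, at 35.9, 25.0 and 28.3 FPKM in PTCKO sham and 43.8, 56.4 and 29.1 FPKM in WT sham (adjusted p = 0.0764). They also included Dusp1 (adjusted p = 0.407), Errfi1 (0.672) and Glul (0.722). Of 7 genes for the receptors and steroid enzymes, 1 was called: Hsd11b2, which inactivates glucocorticoids in the collecting duct, at -0.32 (adjusted p = 0.0434), a call no fit with 1 library left out kept. The receptor gene Nr3c1 was at 12.5, 13.1 and 14.8 FPKM in PTCKO sham and 10.4, 8.62 and 10.4 FPKM in WT sham (0.36, adjusted p = 0.0541).

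The lists of general stress response stand beside a background of 12.1% of all genes called. Of 20 immediate-early genes, which rise within minutes of tissue handling, 0 were called by edgeR as fitted or limma on FPKM and 4 were lower by DESeq2, with 5 at an unadjusted edgeR p under 0.05, and 4 were lower by edgeR without WT sham 1. Fosb, a member of that list, ranged from 0.48 to 0.82 FPKM in PTCKO sham and from 0.20 to 3.86 FPKM in WT sham. Of 20 heat shock and chaperone genes, 0 were called by edgeR as fitted or limma on FPKM and 1 by DESeq2, with 1 at an unadjusted edgeR p under 0.05. Of 15 p53 targets, 3 were lower: Cdkn1a, which is also on the glucocorticoid list, Trp53inp1 (log2 fold change -0.66, adjusted p = 0.00965) and Aen (-0.37). Of 16 integrated stress response genes, 3 were lower and 1 higher, with the serine synthesis enzyme Psat1 at 16.4, 14.9 and 19.0 FPKM in PTCKO sham and 26.6, 23.9 and 28.9 FPKM in WT sham (-0.77, adjusted p = 0.0118). The 3 lower genes of that list were 1 without any PTCKO library.

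Genes of fasting and lipid use were lower in part. Of 24 tested fasting and PPAR-alpha targets, 8 were lower and 1 higher in PTCKO, against 5.66% and 6.42% of all genes (median log2 fold change -0.22). The count of 8 was 4 without PTCKO sham 1 or PTCKO sham 2, 3 without PTCKO sham 3 and 5 without WT sham 1. Ppard, the fatty acid receptor PPAR-delta, was at 10.1, 11.1 and 12.4 FPKM in PTCKO sham, against 52.9, 42.6 and 28.9 FPKM in WT sham (-1.99, SE 0.19, adjusted p = 0.00262). The groups did not overlap, and the call held under every alternative. The mitochondrial carrier Ucp2 (-0.90) and the peroxisomal thiolase Acaa1b (-0.83) were also lower, and Bdh1, a ketone body dehydrogenase, was higher (0.61). The list also holds Angptl4, described above.

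The enzymes that oxidise fatty acids included 4 lower and 2 higher of 35 tested, against 5.66% and 6.42% of all genes (median log2 fold change -0.14). The lower count was 1 without any PTCKO library or WT sham 1 and 2 without WT sham 3, and the higher count was 0 without PTCKO sham 1, PTCKO sham 2, WT sham 1 or WT sham 3. Acsl1, which activates long-chain fatty acids, was at 56.6, 62.8 and 62.5 FPKM in PTCKO sham and 83.7, 86.6 and 86.5 FPKM in WT sham (-0.60, SE 0.08, adjusted p = 0.00754), and kept its call under every alternative. Crot, the peroxisomal carnitine octanoyltransferase, was higher (0.60, adjusted p = 0.0261), a call lost without PTCKO sham 1, PTCKO sham 2, WT sham 1 or WT sham 3. Of 8 gluconeogenesis genes, 2 were lower, G6pc (-0.67) and its transporter Slc37a4 (-0.33). That count was 0 without PTCKO sham 2 or WT sham 1. G6pc lost its call without any library but WT sham 2, and Slc37a4 without any PTCKO library or WT sham 1. Pck1, the rate-limiting enzyme, was at 1445, 1040 and 1089 FPKM in PTCKO sham and 1688, 1476 and 1488 FPKM in WT sham (-0.48, adjusted p = 0.0523). Of 18 TCA cycle genes, 1 was lower, Mdh2 (-0.28, adjusted p = 0.0446), and it lost its call without any PTCKO library, WT sham 1 or WT sham 3.

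In sterol and fatty acid synthesis, 3 of 27 genes were higher and 5 lower, against 6.42% and 5.66% of all genes (median -0.12). The lower count was 0 without PTCKO sham 1, 1 without PTCKO sham 2 or WT sham 1 and 3 without PTCKO sham 3 or WT sham 2, and the higher count was 1 without PTCKO sham 1 or WT sham 1. The desaturase Scd1 was at 71.0, 46.0 and 106 FPKM in PTCKO sham and 24.4, 29.3 and 29.8 FPKM in WT sham (log2 fold change 1.31, SE 0.25, adjusted p = 0.0209), and lost its call without PTCKO sham 1 or WT sham 1. Enzymes of sterol synthesis were called in both directions: Cyp51 was higher (0.43), and Fdps (-0.64), Msmo1 (-0.51) and Fdft1 (-0.37) were lower.

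Subunits of the respiratory chain and of both ribosomes were slightly lower in the libraries labelled PTCKO, and so were short transcripts in general. Of 76 nuclear-encoded OXPHOS genes, 24 were called lower and 0 higher (5.66% and 6.42% of all genes), and 75 had a negative fold change, with a median of -0.36. Complex I held 13 of these calls among 36 genes (median -0.37) and complex V held 6 among 15 (-0.35). Complex IV had 3 lower of 12 (-0.37), and complex III had 2 lower of 9 (-0.36). In complex II, 0 of 4 were called by edgeR, limma or DESeq2 (-0.17), with 2 at an unadjusted edgeR p under 0.05. Of 52 cytosolic ribosomal protein genes, 22 were lower (median -0.39), and of 36 mitochondrial ones, 11 (median -0.33), with 0 higher in each. The cytosolic count was 0 without PTCKO sham 1, 1 without PTCKO sham 2, PTCKO sham 3 or WT sham 1, 13 without WT sham 3 and 43 without WT sham 2. The mitochondrial count was 0 or 1 without any PTCKO library or WT sham 1, 5 without WT sham 3 and 19 without WT sham 2.

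Ndufa6, a complex I subunit, was at 295, 309 and 255 FPKM in PTCKO sham, against 375, 388 and 383 FPKM in WT sham (log2 fold change -0.52, SE 0.09, adjusted p = 0.0167). Cox6a1 of complex IV was at 1219, 1238 and 1079 FPKM in PTCKO sham and 1399, 1376 and 1599 FPKM in WT sham (-0.41, SE 0.10, adjusted p = 0.0367). Rpl38 of the large cytosolic subunit was at 424, 476 and 479 FPKM in PTCKO sham and 576, 792 and 778 FPKM in WT sham (-0.75, SE 0.13, adjusted p = 0.0167). Of these, Ndufa6 and Rpl38 lost their call without PTCKO sham 1, and Cox6a1 without any library but WT sham 2. Sdha of complex II, with a longer transcript, was at 292, 279 and 279 FPKM in PTCKO sham and 299, 277 and 279 FPKM in WT sham (-0.11, adjusted p = 0.358).

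Over all tested genes in 5 equal classes of transcript length, the median log2 fold change went from -0.24 in the shortest class (up to 1611 bases) through -0.07, 0.03 and 0.13 to 0.20 in the longest (over 4779 bases). In the shortest class 17.4% of genes were lower and 0.95% higher, and in the longest 1.21% were lower and 14.8% higher. In each library, the shortest class stood relative to the longest at -0.24, -0.15 and -0.24 in PTCKO sham and at 0.13, 0.07 and 0.43 in WT sham, as a difference of median centred log2 CPM. WT sham 3 stood apart from the other WT libraries in this measure. The median OXPHOS transcript had an effective length of 681 bases. With a smooth trend on length removed, the OXPHOS median of -0.36 was -0.01, the cytosolic ribosomal median -0.05 and the mitochondrial ribosomal median -0.07, while the glucocorticoid-induced median was -0.76. The OXPHOS count of 24 was 51 by DESeq2, 5 with no scaling factors, 4 without WT sham 3, 0 to 3 without PTCKO sham 1, PTCKO sham 2, PTCKO sham 3 or WT sham 1, and 41 without WT sham 2. On FPKM and TPM it was 4 and 2. The part of transcript length in the lower level of these genes was not tested.

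**Figure D3:**
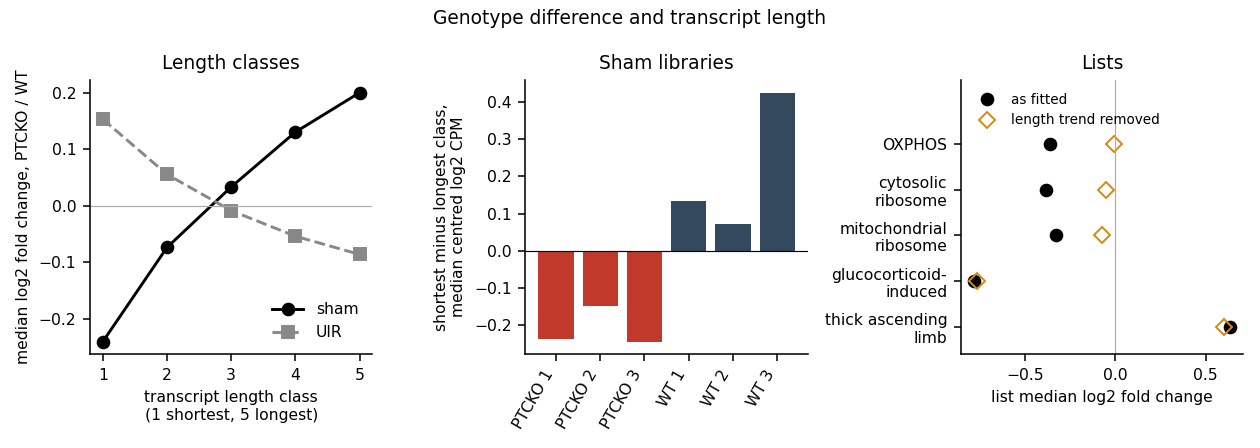
Left, median log2 fold change (PTCKO over WT) by class of transcript length after sham and after UIR; middle, shortest minus longest class in each sham library (median centred log2 CPM); right, median log2 fold change of 5 gene lists as fitted and with the length trend removed. The trend runs upward with length after sham and downward after UIR, and the OXPHOS median is -0.36 as fitted and -0.01 with the trend removed.

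Among nephron segments, the proximal tubule as a whole was little changed. Of 29 markers, 3 were higher and 3 lower (median log2 fold change -0.01), against 6.42% and 5.66% of all genes. Without PTCKO sham 2 or WT sham 1, 0 were called in either direction. Napsa, an aspartic protease, was at 1524, 2230 and 1323 FPKM in PTCKO sham, against 875, 934 and 988 FPKM in WT sham (0.75, SE 0.17, adjusted p = 0.0291). Gpx3, the secreted glutathione peroxidase and an abundant kidney transcript, was at 27395, 24322 and 32736 FPKM in PTCKO sham and 36739, 36861 and 39230 FPKM in WT sham (-0.52, SE 0.14, adjusted p = 0.0415). Miox, which breaks down inositol, was at 1470, 1324 and 1742 FPKM in PTCKO sham and 2492, 1947 and 2158 FPKM in WT sham (-0.64, adjusted p = 0.0230). All 3 calls were lost without PTCKO sham 1, PTCKO sham 2 or WT sham 1, and Gpx3 also without WT sham 2 or WT sham 3 and Napsa without WT sham 2. Lrp2, the endocytic receptor megalin, was at 143, 122 and 143 FPKM in PTCKO sham and 115, 109 and 105 FPKM in WT sham and was not called.

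Segment S1 and S2 markers included 1 call of 10, the organic anion transporter Slc22a8, at 210, 178 and 243 FPKM in PTCKO sham and 319, 298 and 380 FPKM in WT sham (log2 fold change -0.77, SE 0.14, adjusted p = 0.0193). It lost its call without PTCKO sham 1, PTCKO sham 2 or WT sham 1, and 1 of 10 stands beside 12.1% of all genes called. Segment S3 markers had 3 of 10 higher and 9 of 10 with a positive fold change (median 0.45). The anion transporter Slc22a19 was at 54.6, 88.1 and 36.6 FPKM in PTCKO sham and 13.8, 19.4 and 26.7 FPKM in WT sham (1.48, SE 0.32, adjusted p = 0.0261). Cyp7b1, an oxysterol hydroxylase, was at 88.8, 173 and 61.5 FPKM in PTCKO sham and 8.06, 15.0 and 45.7 FPKM in WT sham (2.11, SE 0.59, adjusted p = 0.0477). PTCKO sham 2 was the highest library for both, and WT sham 3 the highest WT library. The summed level of the S3 list was 8692, 8570 and 7613 TPM in PTCKO sham. In WT sham that sum was 7618, 8569 and 7261 TPM, so the groups overlapped. Without PTCKO sham 1, PTCKO sham 2 or WT sham 1, 0 S3 markers were called, with a median of 0.40 to 0.47.

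PTCKO sham 2 was the highest library for the thick ascending limb list, where 2 of 8 markers were higher (median 0.64), against 6.42% of all genes. Slc12a1, the furosemide-sensitive cotransporter of this segment, was at 151, 267 and 139 FPKM in PTCKO sham, against 79.0, 79.6 and 85.8 FPKM in WT sham (log2 fold change 1.08, SE 0.21, adjusted p = 0.0213), and lost its call without WT sham 1. Umod, the uromodulin gene, was at 1007, 1856 and 709 FPKM in PTCKO sham and 754, 721 and 682 FPKM in WT sham and was not called. Summed over the 8 markers, the level was 3182, 4896 and 2529 TPM in PTCKO sham and 2312, 2224 and 1895 TPM in WT sham. With any 1 library left out, 0 or 1 marker was called, and without PTCKO sham 2 the median was 0.25. The part of PTCKO sham 2 in these lists was not tested beyond these values.

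**Figure D4:**
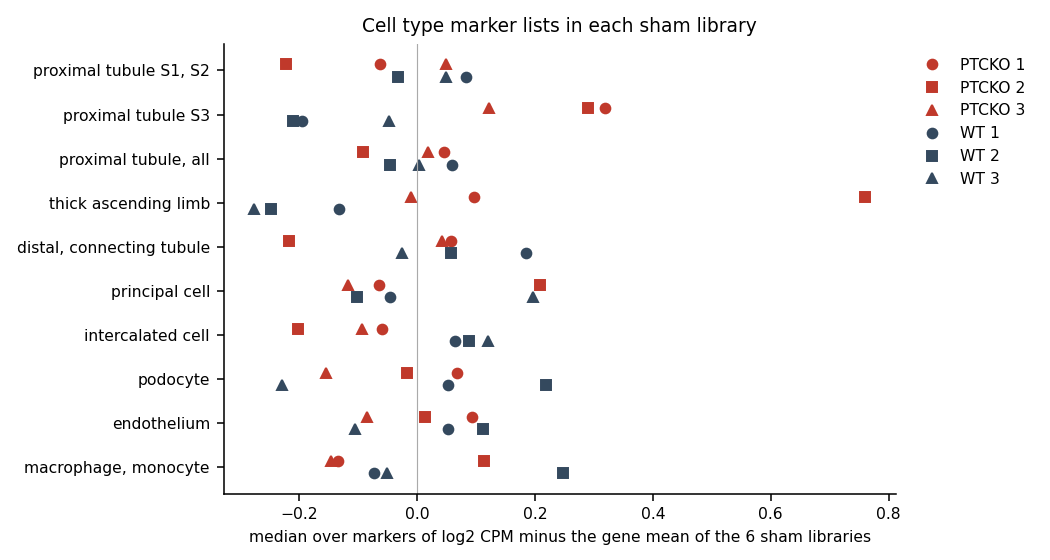
Median over the markers of each cell type of log2 CPM minus the gene's mean over the 6 sham libraries (horizontal axis), with PTCKO above WT in each row and a symbol for each library number. PTCKO 2 stands at the right for the thick ascending limb and at the left for the S1 and S2, distal tubule and intercalated cell lists.

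Distal tubule markers had 2 of 11 lower, against 5.66% of all genes. These were the kallikrein Klk1 (log2 fold change -0.41, adjusted p = 0.0261) and the calcium-binding S100g (-0.61, adjusted p = 0.0334). The count was 0 without PTCKO sham 1, PTCKO sham 2 or WT sham 1, 1 without PTCKO sham 3 or WT sham 3, and 3 without WT sham 2. Intercalated cell markers had 3 of 11 lower, led by the ammonia transporter Rhbg at 22.7, 23.6 and 22.8 FPKM in PTCKO sham and 34.1, 29.6 and 40.3 FPKM in WT sham (-0.65, adjusted p = 0.0167). This count was 0 without PTCKO sham 1, 1 without PTCKO sham 2, WT sham 1 or WT sham 3, and 2 without PTCKO sham 3 or WT sham 2. Principal cell markers had 1 of 9 higher and 1 lower, against 6.42% and 5.66% of all genes, and no fit with 1 library left out kept the lower call. The higher one, the water channel Aqp4, was at 4.19, 9.33 and 6.17 FPKM in PTCKO sham and 0.19, 0.65 and 1.76 FPKM in WT sham (2.81, SE 0.54, adjusted p = 0.0209), and lost its call without PTCKO sham 2, while Scnn1a of the same cell was at 57.4 to 64.8 FPKM in PTCKO sham and 52.9 to 58.4 FPKM in WT sham (adjusted p = 0.259).

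Several transporters and steroid enzymes of the tubule were among the largest rises. Slco4c1, an organic anion transporter, was at 2.40, 5.02 and 2.10 FPKM in PTCKO sham, against 0.18, 0.31 and 0.43 FPKM in WT sham (log2 fold change 3.25, SE 0.43, adjusted p = 0.00754). Cyp27b1, the enzyme that activates vitamin D, was at 14.6, 5.82 and 9.09 FPKM in PTCKO sham and 1.45, 3.16 and 3.41 FPKM in WT sham (1.77, SE 0.37, adjusted p = 0.0240). Cyp4a12a, an androgen-responsive enzyme that makes a vasoconstrictor lipid, was at 157, 215 and 146 FPKM in PTCKO sham and 45.4, 58.3 and 76.8 FPKM in WT sham (1.41, SE 0.21, adjusted p = 0.0106). Slco4c1 and Cyp4a12a kept their call under every alternative, and Cyp27b1 lost it without PTCKO sham 1, PTCKO sham 3 or WT sham 1. Akr1c18, a steroid dehydrogenase, was at 9.72, 42.2 and 8.88 FPKM in PTCKO sham and 0.62, 0.57 and 4.77 FPKM in WT sham (3.22, SE 0.82, adjusted p = 0.0388), and with 1 library left out it ranged from 2.10 to 5.02 and kept its call only without WT sham 3. The amino acid transporter Slc7a12, known as female-biased in kidney, was at 5.41, 4.15 and 19.1 FPKM in PTCKO sham and 1.10, 2.18 and 1.90 FPKM in WT sham (2.40, adjusted p = 0.0364), and lost its call without PTCKO sham 1 or any WT library. Of 17 androgen-responsive genes, 3 were higher and 0 lower, against 6.42% and 5.66% of all genes. The androgen-responsive rises were 1 without PTCKO sham 1, PTCKO sham 2 or WT sham 1, and 2 without PTCKO sham 3, WT sham 2 or WT sham 3. Of 10 female-biased genes, 3 were higher and 1 lower. The female-biased rises were 0 without PTCKO sham 1 or WT sham 2, 1 without PTCKO sham 2, WT sham 1 or WT sham 3, and 2 without PTCKO sham 3.

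Of 30 detoxification genes, 5 were higher and 6 lower (median -0.17), against 6.42% and 5.66% of all genes. The higher count was 1 without PTCKO sham 1 or WT sham 1 and 2 without PTCKO sham 2, PTCKO sham 3 or WT sham 2, and the lower count was 3 without PTCKO sham 1 or PTCKO sham 2, 2 without WT sham 1 and 4 without WT sham 3. Among the lower ones, Gstp1, a glutathione transferase, was at 426, 371 and 371 FPKM in PTCKO sham and 612, 584 and 631 FPKM in WT sham (log2 fold change -0.75, SE 0.09, adjusted p = 0.00745), and Ces1d, a carboxylesterase, was at 120, 123 and 112 FPKM in PTCKO sham and 214, 169 and 186 FPKM in WT sham (-0.79, adjusted p = 0.00754). Both kept their call under every alternative. Of 28 organic ion transporters, 3 were higher and 3 lower, and without PTCKO sham 1, PTCKO sham 2 or WT sham 1 these were 1 and 0. Of 21 antioxidant genes, 3 were lower: Gpx3, the cytosolic peroxidase Gpx1 (-0.51) and the ferritin light chain Ftl1, at 3369, 3256 and 3096 FPKM in PTCKO sham and 4296, 4319 and 4779 FPKM in WT sham (-0.57, adjusted p = 0.0165). The antioxidant count was 1 without PTCKO sham 1, PTCKO sham 2 or WT sham 1, 2 without WT sham 3 and 4 without WT sham 2.

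Outside the tubule, the renin gene was lower. Ren1, made by juxtaglomerular cells, was at 32.9, 31.2 and 43.5 FPKM in PTCKO sham, against 101, 77.6 and 78.6 FPKM in WT sham (log2 fold change -1.36, SE 0.15, adjusted p = 0.00451), and it kept its call under every alternative. Of the 10 smooth muscle, pericyte and renin cell markers, 1 was called, which was Ren1, beside 12.1% of all genes called. Of 14 fibroblast and matrix genes, 0 were called by edgeR as fitted or limma on FPKM, with 3 at an unadjusted edgeR p under 0.05. Higher calls numbered 2 by DESeq2 and 6 by edgeR without WT sham 2, and 13 had a positive fold change (median 0.27). Endothelium had 1 of 14 called (Tek, 0.45) and podocytes 1 of 12.

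The 19 genes of the tubule injury list included 2 calls upward and 1 downward, against 6.42% and 5.66% of all genes. The upward count was 1 without PTCKO sham 1 or WT sham 1, and the downward count was 0 without any PTCKO library or WT sham 2. Havcr1, which encodes the injury marker KIM-1, was at 5.06, 2.33 and 2.70 FPKM in PTCKO sham, against 0.40, 0.47 and 0.09 FPKM in WT sham (log2 fold change 3.29, SE 0.47, adjusted p = 0.0102). The groups did not overlap, and the call held under every alternative. Vcam1 was at 2.57, 2.63 and 1.75 FPKM in PTCKO sham and 2.09, 2.46 and 1.66 FPKM in WT sham, and Lcn2 was at 1.79, 4.78 and 1.26 FPKM in PTCKO sham and 1.03, 3.03 and 2.13 FPKM in WT sham, and neither was called.

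Beside the 12.1% of all genes called, immune lists held 0 to 3 calls each. Macrophage markers had 2 of 17 higher and 1 lower: Csf1r, the receptor for the growth factor CSF1 (log2 fold change 0.81), and the chemokine receptor Ccr2 (0.92) were higher, and C1qa was lower at 16.8, 18.7 and 15.4 FPKM in PTCKO sham and 21.4, 24.5 and 27.2 FPKM in WT sham (-0.63, adjusted p = 0.0209). With 1 library left out, 0 to 2 macrophage markers were higher and 0 or 1 lower. Csf1r lost its call without WT sham 1, and C1qa without PTCKO sham 1 or PTCKO sham 3. Ccr2 lost its call without PTCKO sham 1, PTCKO sham 2, WT sham 1 or WT sham 3. Jchain, the joining chain of plasma cell antibodies, was at 10.3, 5.98 and 7.13 FPKM in PTCKO sham and 19.0, 27.3 and 15.4 FPKM in WT sham (-1.49, SE 0.23, adjusted p = 0.0123). Jchain kept its call with each library left out but lost it in the edgeR fit on all 12 libraries (adjusted p = 0.148). Of 6 T and NK cell, 6 neutrophil and 8 erythroid markers, 0 were called by edgeR, limma or DESeq2, and 1, 0 and 0 had an unadjusted edgeR p under 0.05. Of 13 chemokines and cytokines, 3 were lower, Cxcl9 (-1.16), Cxcl10 and Cxcl16 (-0.37), a count of 0 without PTCKO sham 1 or PTCKO sham 3 and of 1 without PTCKO sham 2, WT sham 1 or WT sham 3. Of 15 complement genes 2 were higher and 1 lower, with C8a at 9.16, 11.8 and 8.62 FPKM in PTCKO sham and 2.62, 4.16 and 4.90 FPKM in WT sham (1.27, adjusted p = 0.0139). Of 21 interferon response genes 1 was higher, and of 19 cell cycle genes 1 was lower.

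Some of the largest differences fell on genes with near-identical relatives, between which read sharing by RSEM is uncertain. The histone gene H3c14 was at 4.16, 8.40 and 8.19 FPKM in PTCKO sham and listed at 0 in all 3 WT sham libraries, and after UIR it was listed at 0 in all 3 PTCKO libraries. Fam177a was at 6.55, 7.48 and 6.86 FPKM in PTCKO sham and 1.66, 2.49 and 1.82 FPKM in WT sham, whereas its relative Fam177a2 was at 0.01, 0 and 0 FPKM in PTCKO sham and 3.92, 3.47 and 3.63 FPKM in WT sham. The methyltransferase-like genes Mettl7a2 (log2 fold change 2.04), Mettl7a3 (2.17) and Methig1 (2.03) lie in 1 family and were all called higher, with PTCKO sham 2 the highest library for each, and all 3 lost their call when any PTCKO library was left out, Mettl7a2 and Methig1 also without WT sham 1 or WT sham 2. The glucuronosyltransferase Ugt1a6b was lower (-1.96), at 8.38, 8.47 and 10.5 FPKM in PTCKO sham and 21.7, 19.4 and 56.9 FPKM in WT sham, and lost its call without any PTCKO library. A4gnt, a glycosyltransferase gene, was higher (1.69, adjusted p = 0.0240), and lost its call without PTCKO sham 1, PTCKO sham 2 or WT sham 1.

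Adult beta-globin genes, carried into kidney RNA by red cells, differed between libraries of 1 genotype. Hbb-bs was at 207, 427 and 107 FPKM in PTCKO sham and 143, 1.15 and 301 FPKM in WT sham. Hbb-b1 was at 232, 5.13 and 106 FPKM in PTCKO sham and 163, 392.3 and 8.11 FPKM in WT sham. As background, mouse strains carry either the Hbb-bs and Hbb-bt pair or the Hbb-b1 and Hbb-b2 pair. PTCKO sham 2 and WT sham 3 were high in Hbb-bs and low in Hbb-b1, WT sham 2 the reverse, and PTCKO sham 1, PTCKO sham 3 and WT sham 1 held both at like levels. The labels name 1 strain background, and the part of strain differences in any result was not tested.

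The 6 UIR libraries gave the same genotype contrast in other kidneys. There 1463 of 15212 genes tested (9.62%) were called by the same test, 923 higher (6.07%) and 540 lower (3.55%). That count rested on single libraries: it was 167 without PTCKO UIR 1, 3265 without PTCKO UIR 2, 222 without PTCKO UIR 3, 22 without WT UIR 1 and 13 without WT UIR 3. Of the 1638 genes called after sham and also tested after UIR, 227 were called in both, 75 in the same direction and 152 in the opposite one. The 75 were 4.58% of the sham calls and 5.51% of the UIR calls. Of the 772 genes lower after sham, 134 (17.4%) were higher after UIR, where 5.96% of genes not called after sham were higher.

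**Figure D5:**
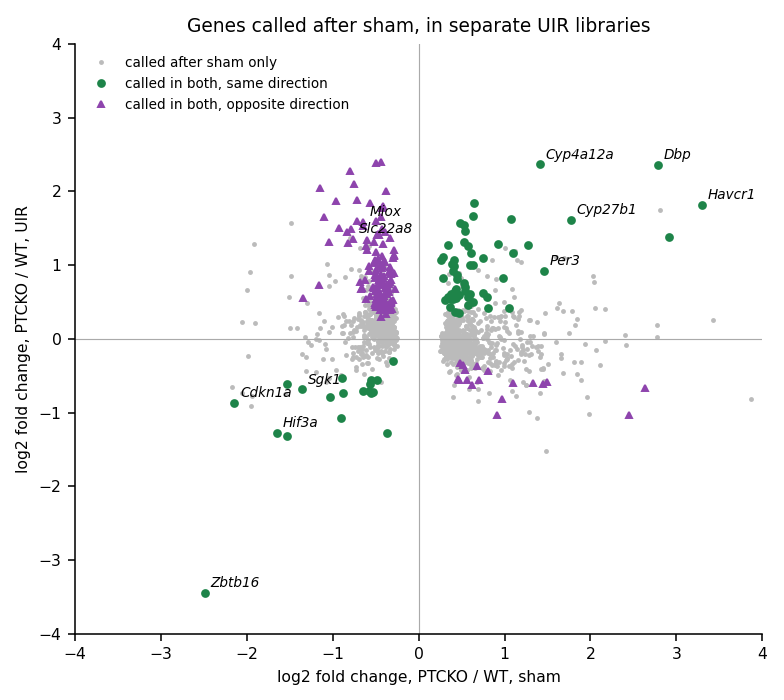
Log2 fold change (PTCKO over WT) after sham (horizontal) and after UIR (vertical) for the genes called after sham, with colour and shape for the call after UIR; 1 gene lies outside the axes. Dbp, Havcr1, Cyp4a12a, Cyp27b1 and Per3 lie at the upper right, Zbtb16 at the lower left, and the opposite calls cluster at the upper left.

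Several clock genes and Zbtb16 were called in the same direction after UIR. Dbp was 2.79 after sham and 2.35 after UIR on the log2 scale (adjusted p = 0.0102 in sham and 0.0100 in UIR), and Per3 was 1.46 and 0.92. Tef was 0.63 and 1.00, Nr1d2 0.75 and 0.62, Arntl -1.04 and -0.79, Npas2 -1.53 and -0.61 and Cry1 -0.88 and -0.73, all called in both. Zbtb16 was -2.49 after sham and -3.45 after UIR. Cdkn1a was -2.15 and -0.87, and Sgk1 was -1.36 and -0.69, each called lower in both and with a smaller difference after UIR (interaction adjusted p = 0.00165 for Cdkn1a and 0.0173 for Sgk1). Both were picked by sham values that enter the same interaction, so a smaller difference after UIR is favoured by the choice. Havcr1 (3.29 and 1.81), Cyp27b1 (1.77 and 1.61) and Cyp4a12a (1.41 and 2.37) were higher in both. Of the 24 glucocorticoid-induced genes, 14 were lower and 0 higher after sham (median -0.78), against 5.66% and 6.42% of all genes. After UIR, 5 were lower and 1 higher (median -0.10), against 3.55% and 6.07% of all genes. The test of the interaction was passed by 11, against 21.5% of all genes, a description because the list was chosen with earlier results known.

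OXPHOS and proximal tubule genes stood higher in the genotype contrast after UIR than in that after sham. OXPHOS genes were 24 of 76 lower after sham and 16 of 76 higher after UIR (medians -0.36 and 0.44), against 5.66% and 6.07% of all genes. Of the 76, 72 passed the test of the interaction, against 21.5% of all genes. That background share covers 3288 of 15322 genes, a count that was 1743 without PTCKO UIR 3 or WT UIR 1, 2054 without PTCKO UIR 1 and 2186 without WT sham 3. The trend on transcript length had opposite signs, at -0.24 in the shortest class after sham and 0.15 after UIR, and with it removed the OXPHOS medians were -0.01 and 0.26. The proximal tubule list, with 3 higher and 3 lower of 29 after sham (median -0.01), had 25 higher and 0 lower after UIR (median 1.38). After UIR, 6.07% of all genes were higher and 3.55% lower. Of the 29 proximal tubule genes, 24 passed the test of the interaction. Slc22a8 was -0.77 after sham and 1.36 after UIR (interaction adjusted p = 0.00229), and Miox was -0.64 and 1.58 (0.00501).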

How the data were processed

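Whole-kidney RNA was sequenced, and the authors deposited RSEM expected counts, FPKM and TPM per gene and library, per the file headers. Bowtie2, RSEM, DESeq2 and the build GRCm38.p6 are named in the submitters' processing notes without versions or settings. Expected counts were rounded to whole numbers. The tests were edgeR 4.0.16 quasi-likelihood fits in R 4.3.3 with TMM scaling and edgeR's default filter on low counts, on the 6 sham libraries (4 residual degrees of freedom), on the 6 UIR libraries, and on all 12 for the interaction. Adjustment ran over all genes tested.

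Alternatives were DESeq2 1.42.0, limma 3.58.1 on log2 of FPKM or TPM plus a pseudocount, other scaling, no filter, all 12 libraries, a replicate block and each library left out. Deposited FPKM are printed per library, with no pseudocount. Scripts were tested on simulated data with 200 changed genes. Named genes were the 12 largest called rises and falls with a mean of at least 5 FPKM in the higher group and no overlap between the groups, without predicted genes and pseudogenes, the 8 largest FPKM differences, the 4 smallest p-values of each list, and the clock and NEDD4-family genes; others are list members. The comparison and the 51 gene lists were chosen with earlier results of these data known. Promoter sequence is from the RefSeq table for GRCm38.p6, and 99.7% of genes matched the annotation. Precision is limited by 3 libraries per group. Some genes counted in the lists are not reported here by name.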

Additional observations from a re-analysis of the deposited data

Results flagged for a closer look

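Of the 24 largest rises and falls after sham, 13 had a genotype difference that was not the same after UIR by edgeR's test of the interaction over all 12 libraries, which 21.5% of all genes passed. The 24 were chosen for large sham differences that enter the same interaction, so a value toward a smaller difference after UIR is favoured by the choice, and the count is a description. The values below are the log2 fold change after UIR minus that after sham. Among the rises, Slc7a12 was at -2.31 (adjusted p = 0.0432), Cyp7b1 at -2.43 (0.0331) and Fam177a at -2.71 (0.0469). H3c14 was at -17 (0.00591), a fitted value that depends on the prior count because the gene was listed at 0 in whole groups. Among the falls, Arrdc2 was at 2.32 (0.00128), Ppard at 1.79 (0.00147), Cdkn1a at 1.31 (0.00165), Noct at 2.15 (0.003) and Ddit4 at 1.68 (0.0124). Npas2 was at 0.959 (0.0146), Depp1 at 1.54 (0.0176), Jchain at 3.09 (0.0305) and Ugt1a6b at 2.91 (0.0441). Groups of 3 libraries are too small for a test of single outlying libraries.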

How the results depend on the processing

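The 1653 sham calls were 2780 on TPM and 815 with the replicate block, and 218 to 1558 with 1 library left out. The UIR calls were 308 with the replicate block and 13 to 3265 with 1 library left out, and the interaction calls 1743 to 4565. The cause was not tested, though fits with a library less have fewer samples. Replicate numbers did not pair the libraries: the correlations of deviations for same-numbered sham libraries were 0.0927, -0.0628 and 0.0115, and not every library correlated best with its own number. With the length trend removed, the fold changes of Ndufb4 (0.0385), Uqcrb (0.0487), Cox8a (0.0210) and Atp5g2 (0.00759) turned positive, and that of Wwp2 was -0.1343, by the construction of that setting.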
